A study of Mus musculus with 8 samples.

Results

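The T cell receptor beta locus of the mouse holds the variable (V), diversity (D) and joining (J) segments from which the beta chain of the receptor is assembled. All genes of the GENCODE M21 annotation on chromosome 6 whose symbols start with Trbv, Trbd or Trbj were taken, whatever their annotated type, which gave 51 of the 51229 autosomal genes of the annotation. They comprise 2 D segments, 14 J segments, 1 of them annotated as a pseudogene, and 35 V segments, of which 22 are annotated as V genes and 13 as V pseudogenes. Each segment was measured over its body with 500 bp to each side, and the 51 regions held 3 to 35 CpGs with a median of 10. Regions of neighbouring J segments overlap, and the 51 regions together cover 396 distinct CpGs.

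Whole-genome bisulfite sequencing was done on sorted lymphocytes from spleens of C57BL/6J mice at 6 to 8 weeks of age, with no treatment or engineered allele in any group. The 4 groups were CD43- B cells from females, CD43- B cells from males, and naive CD4+ T cells (CD62Lhi, CD44lo, CD25-) from females and from males, with 2 labelled samples in each and cells of 4 to 5 animals pooled per sample. The 2 samples of a group share 1 table, so there were 4 files, and the sexes were the only repeats of a cell type. The fits below leave 1 residual degree of freedom for the spread between the 4 files. That spread was shared across all gene regions, so the p-values of a segment rest largely on the spread at other regions. Both fits count a read once at each CpG it covers. The autosomal median coverage per CpG was 14 reads in the female B file, 15 in the male B file, 17 in the female T file and 16 in the male T file, and autosomal methylation lay between 79.5% and 80.7% in all 4 files. The labels were checked by methylation within 1 kb of the start of marker genes. All 8 T cell genes (Cd3e and Lck among them) were lower in both T files than in both B files, with medians of 72.7% and 70.2% in the B files and 10.6% and 10.9% in the T files. Of the B cell genes, Cd79a, Cd79b, Ms4a1, Cd22 and Blk were each lower in both B files (8.19% to 32.8%) than in both T files (35.9% at Cd79b to 93.6% at Ms4a1). Of 8 genes of other cells, 2 (Cd8a and Cd8b1) were lower and 3 higher in both T files. A list of 24 genes for recombination and pre-T cell receptor signalling (Rag1, Rag2, Dntt, Ptcra and others) had 0 coverage calls in either direction with edgeR, DESeq2 or limma (1 lower and 0 higher at an unadjusted p under 0.05) and 7 with lower methylation in T cells (Cd3d, Cd3e, Cd3g, Cd247, Lck, Bcl11b and Tcf7). Over all regions tested, 0.241% were called lower in coverage and 0.749% lower in methylation, and 1.73% were lower and 6.42% higher in coverage at an unadjusted p under 0.05.

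In developing T cells the RAG recombinase cuts at recombination signals beside the segments and joins a D to a J and then a V to the joined DJ. Where the joined segments point the same way, the DNA between them is lost from the chromosome as a circle. A signal is a heptamer and a nonamer separated by a spacer, and a segment with a short spacer joins to one with a long spacer. The V segments carry the long-spacer signal after their coding end, the J segments carry the short-spacer signal before it, and each D segment carries both. B cells use the same recombinase on their immunoglobulin loci, and the B files are the comparison for the T files here. In the mouse the locus runs from Trbv1 through the other V segments, a stretch of trypsinogen genes, Trbd1, the Trbj1 cluster and the constant gene Trbc1, to Trbd2, the Trbj2 cluster and the constant gene Trbc2, with Trbv31 beyond Trbc2 in the opposite orientation. From the start of Trbv1 to the end of Trbv31 it spans 667 kb.

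The sequences of the D segments and of the J segments at the edges of the clusters are shown first, because coverage differed most at their ends nearest to the D segments. They were read from the GRCm38 genome, plus strand, 5′ to 3′, with the nonamers and heptamers of the signals in capitals; a signal before a segment reads as its reverse complement on this strand. Trbd1 lies at chr6:41533201-41533212, Trbd2 at chr6:41542163-41542176, Trbj1-1 at chr6:41533864-41533911, Trbj2-1 at chr6:41542754-41542803 and Trbj2-7 at chr6:41543810-41543856.
Trbd1: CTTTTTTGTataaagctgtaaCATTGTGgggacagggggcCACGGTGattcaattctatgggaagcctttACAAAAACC
Trbd2: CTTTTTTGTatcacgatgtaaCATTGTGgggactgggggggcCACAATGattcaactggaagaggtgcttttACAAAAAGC
Trbj1-1: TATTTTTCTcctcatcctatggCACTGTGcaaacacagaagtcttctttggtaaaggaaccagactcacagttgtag
Trbj2-1: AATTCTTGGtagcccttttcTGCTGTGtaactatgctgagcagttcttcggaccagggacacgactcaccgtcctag
Trbj2-7: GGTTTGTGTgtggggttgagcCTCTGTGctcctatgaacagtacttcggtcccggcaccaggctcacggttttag
The signals after 4 V segments show how those differ, read in the direction of each segment and with the heptamer and nonamer in capitals. Trbv1 (chr6:40891229-40891885) is the first segment of the locus, Trbv16 (chr6:41151740-41152230) 1 of 4 V segments called lower in both measures, Trbv29 (chr6:41271394-41271881) one of the V segments with the lowest T over B coverage ratios, and Trbv31 (chr6:41557691-41558452, minus strand) the last.
Trbv1: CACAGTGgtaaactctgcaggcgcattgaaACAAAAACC
Trbv16: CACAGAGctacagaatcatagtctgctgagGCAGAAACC
Trbv29: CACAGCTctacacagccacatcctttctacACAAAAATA
Trbv31: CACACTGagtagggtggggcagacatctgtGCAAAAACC
The search took the heptamer CACAGTG, of which CAC was required, within 6 bases of the annotated end, and the nonamer ACAAAAACC with a spacer of 12 or 23 bases, 1 more or 1 fewer being allowed. At least 5 of 7 heptamer and 5 of 9 nonamer letters matched in 4 of 4 signals of the D segments, 5 of 7 of Trbj1, 6 of 7 of Trbj2, 22 of 22 V genes and 7 of 13 V pseudogenes. The same search at 29257 evenly spaced places of chromosome 6 gave 1.03% with the spacer of 12 and 1.08% with the spacer of 23. Most signals of the segments began right at the annotated end, so this comparison is not independent of how those ends were annotated. Trbv1 matched all 7 and all 9 letters.

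Coverage was compared as reads per CpG over the autosomal median of the same file, called relative coverage here, so that 1 is the level of an ordinary autosomal CpG. Taken over all 396 CpGs, relative coverage of the segments was 1.09 in the female B file and 1.08 in the male B file, against 0.553 in the female T file and 0.588 in the male T file. Both T files lay below both B files, at 0.524 times the B level, and the exact permutation test over the 4 files gave p = 0.333 (two-sided), the smallest value that 2 files against 2 allow. Fewer cells or alleles carrying the DNA and fewer reads from each of them cannot be told apart in these bulk samples. A CpG with under 5 reads is not listed in a file and was counted as 0 there; with 4 reads at each such CpG, the most a file could have left out, the ratio was 0.571.

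Segment by segment, with edgeR's quasi-likelihood test and Benjamini-Hochberg adjustment over 50258 gene regions, relative coverage was lower in T cells in 24 of the 51 segments at an adjusted p under 0.05 and higher in 0; at an unadjusted p under 0.05 there were 40 lower and 1 higher, against 1.73% and 6.42% of all regions. All 51 segments passed the filter on low coverage. Over all regions tested, 0.241% were called lower and 0.231% higher. Both T files lay below both B files in 45 of the 51 segments, against 12.2% of all regions. They did so in 24 of the 24 called, which the call itself largely brings about. The median log2 difference was −1.06 over the segments and 0.023 over all regions. By class, 2 of 2 D, 7 of 7 Trbj1, 3 of 7 Trbj2, 8 of 22 V genes and 4 of 13 V pseudogenes were called lower. The female and male ratios of T over B came from separate files, and across the 51 segments, which share CpGs and libraries, Pearson's r between them was 0.82. DESeq2 called 11 of the same 24 segments lower and limma on log2 values 25, each with 0 higher, and only 4 were called with the segment bodies alone, where 27 of 51 could be tested.

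**Figure D1:**
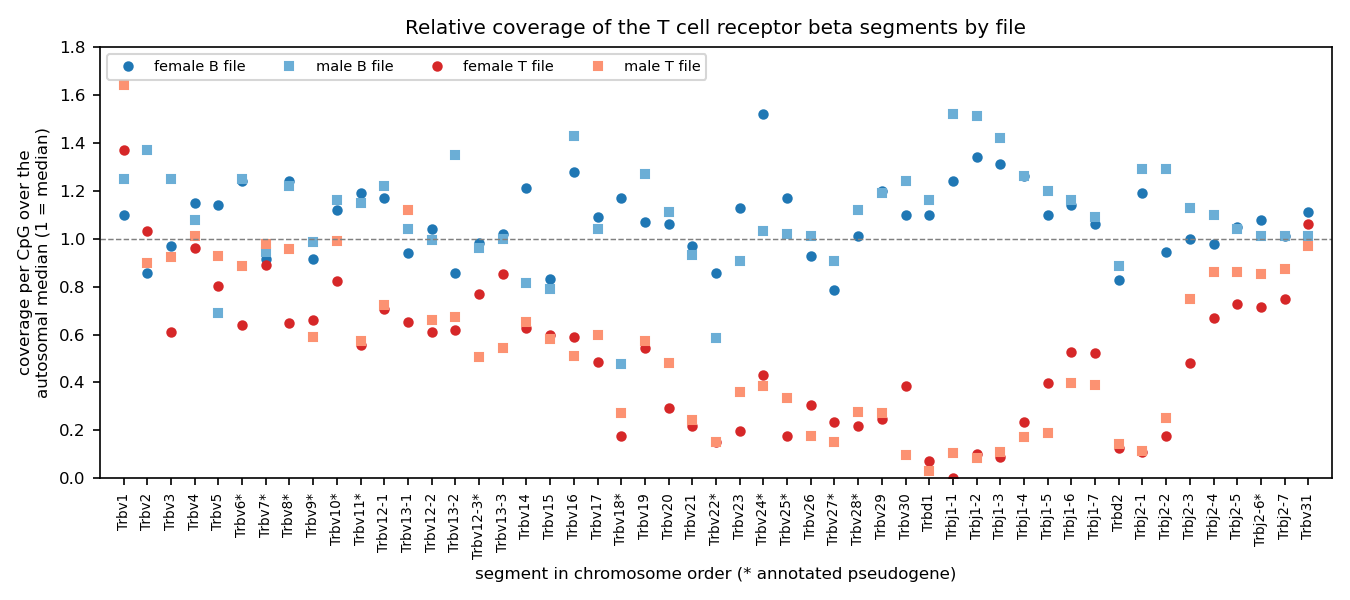
Relative coverage (vertical axis, reads per CpG over the autosomal median of the file) of the 51 segments in chromosome order, with 1 point for each of the 4 files. The B files scatter around 1, between 0.478 and 1.52, while the T files tend to fall from left to right across the V segments, reach their lowest values at Trbd1 and the first Trbj1 segments, and rise again within each J cluster to Trbv31.

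The D segments had the lowest T coverage together with their nearest J segments. Trbd1 had a relative coverage of 1.1 and 1.16 in the female and male B files and of 0.0706 and 0.0312 in the female and male T files (log2 difference −4.44, SE 0.34, edgeR adjusted p = 6.00e-05). The difference was −5.14 without the female T file, −3.99 without the male T file and −2.13 with 4 reads at each unlisted CpG. Trbd2 had 0.827 and 0.886 in the B files and 0.126 and 0.143 in the T files (log2 difference −2.66, SE 0.32, edgeR adjusted p = 0.00154). No value overlapped between the cell types at either segment, and the call at Trbd2 was lost with DESeq2. Of the 10 CpGs of the Trbd1 region, 10 were listed in each B file, 2 in the female T file and 1 in the male T file. With 4 reads at each unlisted CpG, Trbd1 stood at 0.259 and 0.256 in the T files and Trbd2 at 0.294 and 0.321, and both T files still lay below both B files at each.

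Across the Trbj1 cluster, T coverage rose with distance from Trbd1. At Trbj1-1, the J segment nearest to Trbd1, the B files had 1.24 and 1.52, no CpG was listed in the female T file, and the male T file had 0.104 (log2 difference −4.81, SE 0.49, edgeR adjusted p = 0.000388). The male T reads of this region come from CpGs in or next to Trbj1-3. Without the female T file the difference was −3.72. Without the male T file it was −10.99, a value that depends on the prior count because the remaining T file is at 0. With 4 reads at each unlisted CpG the T values at Trbj1-1 were 0.235 and 0.292 and the difference was −2.38. Trbj1-2 had 1.34 and 1.51 in the B files against 0.102 and 0.0833 in the T files. All T reads of the Trbj1-2 region come from CpGs in or near Trbj1-3. Both T files lay far below both B files at these segments. Trbj1-3 had 1.31 and 1.42 against 0.09 and 0.11, and Trbj1-4 had 1.26 and 1.26 against 0.235 and 0.172. Trbj1-5 had 1.1 and 1.2 against 0.398 and 0.188 (log2 difference −2.01, and −2.62 without the female T file). At the far end, Trbj1-6 had 1.14 and 1.16 against 0.529 and 0.396 (log2 difference −1.32, SE 0.20, edgeR adjusted p = 0.01), and Trbj1-7 had 1.06 and 1.09 against 0.524 and 0.388 (log2 difference −1.24, SE 0.22, edgeR adjusted p = 0.0297). The calls at Trbj1-1, Trbj1-6 and Trbj1-7 were lost with DESeq2, and that at Trbj1-7 also with scaling by the autosomal mean. With the segment bodies alone the call at Trbj1-6 was lost, and no other Trbj1 segment held enough CpGs to be tested. The T over B ratio thus went from 0.0378 at Trbj1-1 through 0.0651, 0.0733, 0.161, 0.254 and 0.402 to 0.425 at Trbj1-7. With 4 reads at each unlisted CpG the ratios were 0.191, 0.196, 0.204, 0.258, 0.328, 0.42 and 0.448, so the first 3 were then nearly level and the rise lay between Trbj1-3 and Trbj1-7. The regions of neighbouring segments share CpGs, so the 7 values are not independent of each other.

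The same order held in the Trbj2 cluster at a higher level. Trbj2-1, nearest to Trbd2, had 1.19 and 1.29 in the B files and 0.109 and 0.115 in the T files (log2 difference −3.46, SE 0.24, edgeR adjusted p = 2.14e-05). Trbj2-2 had 0.946 and 1.29 against 0.176 and 0.25 (log2 difference −2.39, SE 0.20, edgeR adjusted p = 9.83e-05). Trbj2-3 had 1 and 1.13 against 0.481 and 0.748 (log2 difference −0.82, SE 0.15, edgeR adjusted p = 0.0401), and without the female T file its difference was −0.51 and was not called. With CpGs listed in all 4 files it was −0.27 and not called, and the call was also lost with DESeq2 and with scaling by the autosomal mean. With 4 reads at each unlisted CpG the T over B ratios of Trbj2-1, Trbj2-2 and Trbj2-3 were 0.226, 0.288 and 0.625, against 0.0903, 0.191 and 0.577. From there on the ratios of the regions differed little, but these regions share most of their CpGs, so the values are not independent of each other. With the segment bodies alone the log2 difference was −0.74 at Trbj2-4 and 0.08 at Trbj2-7, neither of them called. Trbj2-4, Trbj2-5, the pseudogene Trbj2-6 and Trbj2-7 had T over B ratios of 0.736, 0.759, 0.752 and 0.803, with both T files below both B files in each, and none of these differences passed the test (edgeR adjusted p between 0.304 and 0.519). Trbj2-7 had 1.01 and 1.01 in the B files and 0.75 and 0.873 in the T files. Over the distinct CpGs of the clusters, T over B was 0.177 for Trbj1 and 0.58 for Trbj2.

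**Figure D2:**
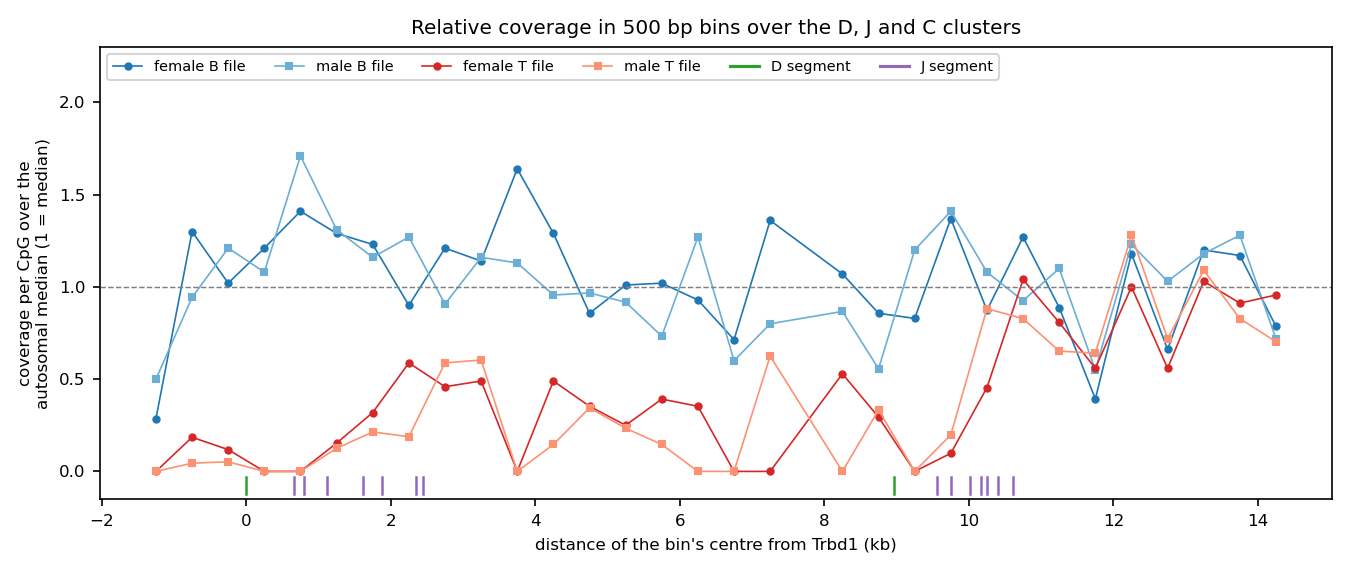
Relative coverage in bins of 500 bp (vertical axis) against the distance of the bin from Trbd1 in kb (horizontal axis), with 1 line for each of the 4 files and ticks for the D and J segments. The T files drop to the baseline on Trbd1 and between Trbd1 and the first Trbj1 segments, lie between 0.459 and 0.604 in the bins 2.5 and 3 kb past Trbd1, vary between the clusters with some bins at 0, are at 0 just past Trbd2, and meet the B files past Trbj2.

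Coverage was low in the T files between the clusters as well, and past Trbj2 it was nearer to the B level. From Trbj2-7 to the end of Trbc2 the T over B ratio was 0.795. Between Trbj1-7 and Trbd2, a stretch that holds the constant gene Trbc1, the 33 CpGs had a relative coverage of 1.07 and 0.887 in the B files and 0.33 and 0.297 in the T files. Trbc1 itself, which encodes 1 of the constant regions of the chain, had a T over B ratio of 0.251 and Trbc2 one of 0.836. In the 500 bp that start at Trbd1 and in the 500 bp after them, 4 and 7 CpGs were listed in each B file and 0 in either T file, and the 5 CpGs of the 500 bp bin just past Trbd2 were likewise unlisted in both T files.

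Along the V segments the T over B ratio fell towards the D segments. Trbv1, the first segment and 155454 bases away from Trbv2, had 1.1 and 1.25 in the B files and 1.37 and 1.64 in the T files, a ratio of 1.29 that did not pass the test (log2 difference 0.36, SE 0.14, edgeR adjusted p = 0.529). The 18 segments from Trbv2 to Trbv15 had ratios between 0.48 and 1.01 with a median of 0.674, and 0 of them were called by edgeR, DESeq2 or limma, with 9 lower and 0 higher at an unadjusted p under 0.05. The 5 from Trbv16 to Trbv20 had a median of 0.405, and 3 were called. The 10 from Trbv21 to Trbv30 had ratios between 0.206 and 0.32 with a median of 0.234, and 9 were called. DESeq2 still called 0 of those 3 and 4 of those 9. With 4 reads at each unlisted CpG, the ratios from Trbv16 to Trbv20 lay between 0.374 and 0.541. Those from Trbv21 to Trbv30 then lay between 0.297 and 0.428, so the fall between these stretches was smaller. These 3 stretches were set after the values were seen.

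The V segments with the highest ratios after Trbv1 were Trbv7 (1.01), Trbv31 (0.959), Trbv5 (0.945), Trbv13-1 (0.899) and Trbv4 (0.885), and none was called. Trbv31, which joins by inversion, had 1.11 and 1.01 in the B files and 1.06 and 0.969 in the T files (log2 difference −0.06, SE 0.18, edgeR adjusted p = 0.969), so the T and B files overlapped there. The lowest ratios were those of Trbv30 (0.206), the pseudogene Trbv22 (0.21), Trbv29 (0.218) and the pseudogenes Trbv27 (0.228), Trbv25 (0.233) and Trbv28 (0.235). This order rests on counting unlisted CpGs as 0: with 4 reads at each, the ratios were 0.318, 0.428, 0.297, 0.372, 0.305 and 0.338, and Trbv29 was the lowest. The place of Trbv30 also rests on the male T file, since its ratio was 0.351 in females and 0.0781 in males, against 0.207 and 0.229 at Trbv29. Trbv29 had 1.2 and 1.19 in the B files and 0.248 and 0.271 in the T files (log2 difference −2.20, SE 0.24, edgeR adjusted p = 0.000692). Trbv30, the last V segment before Trbd1, had 1.1 and 1.24 against 0.385 and 0.0966 (log2 difference −2.36, SE 0.37, edgeR adjusted p = 0.0109). The T files differed from each other there more than at Trbv29, and the log2 difference of Trbv30 was −1.60 without the male T file and −3.59 without the female T file, called in both cases. With the segment bodies alone it was −2.03 and not called, and the calls at Trbv19, Trbv20, Trbv23 and Trbv24 were lost as well. Trbv25, with 3 CpGs, had 1.17 and 1.02 against 0.176 and 0.333 and missed the threshold (log2 difference −2.11, SE 0.42, edgeR adjusted p = 0.0563); it was called lower with limma, with TMM scaling, with cell type as the only term and with unlisted CpGs at 4 reads. Trbv16, named here after its values were seen, had 1.28 and 1.43 against 0.588 and 0.51 (log2 difference −1.30, SE 0.19, edgeR adjusted p = 0.00644). The numbered members of the Trbv12 family, and those of the Trbv13 family, are related in sequence; their values are uncertain where reads of one member could have been placed on another, which was not tested.

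The DNA between the segments moved with them. The 251210 bases from Trbv30 to Trbd1, which hold a stretch of trypsinogen genes, had a relative coverage of 0.878 and 0.907 in the B files and 0.213 and 0.214 in the T files (0.328 and 0.34 with 4 reads at each unlisted CpG). Of 15 genes annotated there, 14 could be tested and 14 were called lower by edgeR, with log2 differences from −3.13 to −1.64. DESeq2 called 10 of the 14 lower and limma 14. By contrast, 0 of 10 genes between Trbv1 and Trbv2 were called by edgeR, DESeq2 or limma (2 lower at an unadjusted p under 0.05), and that stretch had a T over B ratio of 0.96. The 100 kb before Trbv1 and the 100 kb beyond Trbv31 had ratios of 0.947 and 1.01. In windows of 10 kb, 39 of the 67 windows of the locus had a T over B ratio of 0.5 or less in both sexes. Across all autosomes 107 of 238898 windows did (0.0448%), and of the 68 outside the locus 54 were on chromosome 14.

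**Figure D3:**
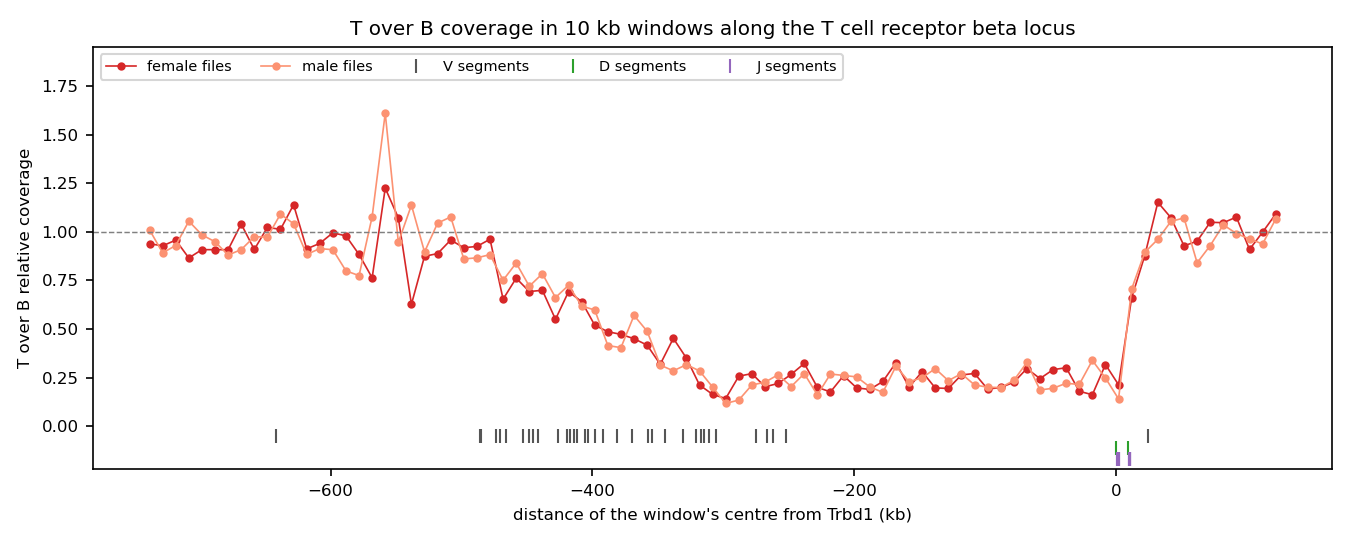
Ratio of T over B relative coverage in windows of 10 kb (vertical axis) against the distance of the window's centre from Trbd1 in kb (horizontal axis), for the female and the male files, with ticks for the V, D and J segments. Apart from single windows between Trbv1 and Trbv2, both sexes stay near 1 up to Trbv2, fall across the V segments to about 0.2, stay there through the stretch without segments before Trbd1, and return to about 1 beyond the J clusters.

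The same values were set beside those of other receptor loci. Taken over the distinct CpGs of all their regions, T cell receptor alpha variable segments (Trav) had 0.881 and 0.92 in the B files and 0.533 and 0.525 in the T files, a ratio of 0.588. Immunoglobulin heavy variable segments (Ighv) had 0.557 and 0.605 in the B files and 0.978 and 1.03 in the T files, a ratio of 1.73, the opposite direction. Immunoglobulin kappa variable segments (Igkv) had a ratio of 1.07. The log2 ratio of beta over alpha coverage changed by −0.16 from B to T, beta over Ighv by −1.72 and beta over Igkv by −1.03. The exact permutation test (two-sided) gave p = 0.333 for each of the 3 differences, the smallest possible with 4 files, and with Benjamini-Hochberg adjustment over the 3 it stayed at 0.333.

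Methylation was compared over CpGs with 5 or more reads in all 4 files. Because this needs reads in the T files, the segments with the lowest T coverage dropped out. Of the 51 segments 41 had 3 or more such CpGs, and neither D segment and only 3 of 7 Trbj1 segments were among them. A call needed an adjusted p under 0.05 in a quasi-binomial model fitted across 49551 gene regions, with dispersions moderated by limma, and a mean difference of 20 points or more. In T cells 21 of the 41 were called lower and 0 higher against 0.749% lower and 0.428% higher over all regions. At an unadjusted p under 0.05, 31 were lower and 2 higher, against 10.1% lower and 6.66% higher over all regions. Both T files lay below both B files in 31 of the 41, against 26.6% of all regions. They did so in 21 of the 21 called, which the call itself largely brings about. The median difference was −26 points over the 41 segments and −0.27 points over all regions. Across the 41 segments, which share CpGs and libraries, Pearson's r between the female and male differences was 0.94. With 1 dispersion prior for all regions, 11 of the same 21 segments were called lower, and limma on log2 ratios called 19, each with 0 higher. Bisulfite reads do not separate 5-methylcytosine from 5-hydroxymethylcytosine, and both count as methylated here.

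**Figure D4:**
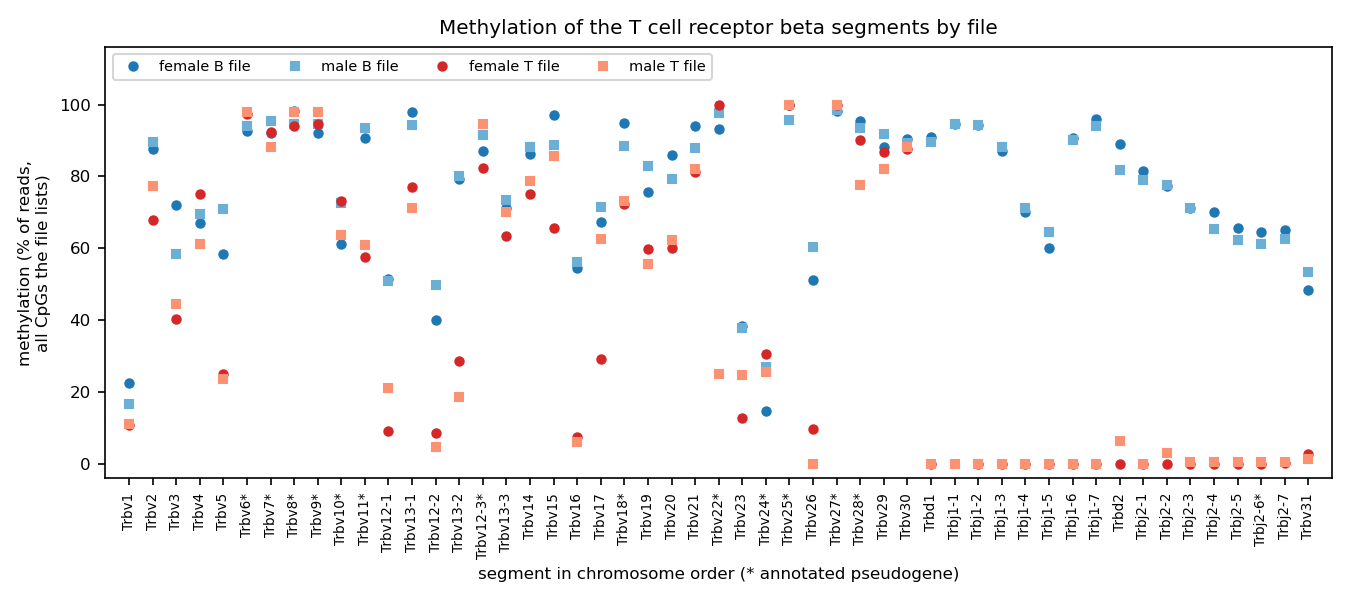
Methylation in percent of reads (vertical axis) over all CpGs that a file lists in each of the 51 segments, in chromosome order, with 1 point for each of the 4 files. At the D and J segments the T files sit at or near 0% while the B files lie between 60.2% and 95.9%, and among the V segments some differ between cell types and others do not.

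At the D and J segments almost no methylation was found in T cells. Reads were summed over CpGs, so that a read over several CpGs counts once at each of them; these sums are called CpG reads here and exceed the number of separate reads. Within 1 kb of these segments, 1 of 780 CpG reads was methylated in the female T file (0.128%) and 4 of 735 in the male T file (0.544%), against 1372 of 1744 in the female B file (78.7%) and 1469 of 1892 in the male B file (77.6%). Of 111 CpGs there, the female T file listed 70, of which 69 were at 0%, and the male T file listed 66, of which 63 were at 0%. In the B files 94 of 109 and 95 of 111 listed CpGs were at 50% or more. Over the regions of the D and J segments themselves, the share was 0.154% in the female T file (95% Wilson interval 0.0272% to 0.866%) and 0.469% in the male T file (0.16% to 1.37%). These intervals, and every limit given for a count of 0, take each CpG read as independent and are therefore too narrow, and they cover no error other than counting.

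All 10 J segments that could be tested were called lower. Their regions share CpGs, so the 10 calls are not independent of each other. With the segment bodies alone 1 of these 10 calls was kept, because most J bodies held too few shared CpGs to be tested. Trbj1-7 had 96.7% and 92.9% in the B files and 0% in both T files, with 65 and 62 CpG reads in the T files (difference −94.8 points, adjusted p = 8.92e-06 from the quasi-binomial fit). Trbj1-6 had 90.3% and 88.4% against 0% in both T files, with 84 and 76 CpG reads in the T files (−89.4 points, adjusted p = 6.72e-06 from the same fit). Trbj1-5 fell by 83.3 points, Trbj2-1 by 87.2 and Trbj2-2 by 80.7, and the call at Trbj2-1 was lost with 1 dispersion prior for all regions. The 3 shared CpGs of the Trbj2-1 region lie in Trbj2-2 or in or next to Trbj2-3, and none lies in Trbj2-1 itself. They are counted again at Trbj2-2, so its value and that of Trbj2-1 are not separate results. None of Trbj1-5, Trbj1-6, Trbj1-7, Trbj2-1 and Trbj2-2 had a T value above 5.26%. Trbj2-3 to Trbj2-7 started from lower levels in the B files and differed by −67.6 to −59.9 points. Trbj2-7 had 65.7% and 59.3% in the B files, with 428 and 415 CpG reads, and 0.231% and 0.495% in the T files, with 433 and 404 CpG reads.

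For the segments outside the test, all CpGs that a file lists were used, with no test. Trbd1 had 90.9% and 89.7% in the B files and 0% in both T files, where the CpG reads were 12 and 5. Trbd2 had 88.9% and 81.7% in the B files, 0% of 15 CpG reads in the female T file and 6.25% of 16 CpG reads in the male T file. At both D segments the T reads came only from CpGs before the segment. No CpG in or after it within the region was listed in either T file, whereas the B values cover both sides. Trbj1-1 had 94.7% and 94.5% in the B files, and the 20 CpG reads of the male T file were unmethylated. Those 20 CpG reads come from 3 CpGs in or next to Trbj1-3, and no CpG nearer to Trbj1-1 was listed in either T file. The regions overlap, so the same 20 CpG reads are counted again at Trbj1-2, Trbj1-3 and Trbj1-4. Likewise, the 26 CpG reads of the female T file at Trbj1-2 and at Trbj1-3 are the same reads, from CpGs just past Trbj1-3. They are counted again at Trbj1-4, and no CpG in Trbj1-2 itself was listed in either T file. Trbj1-2, Trbj1-3 and Trbj1-4 were at 0% in both T files, with 26 and 20, 26 and 30, and 64 and 44 CpG reads, and between 70.2% and 94.4% in the B files. Taken over Trbd1 and Trbj1, 0 of 165 and 0 of 111 CpG reads in the T files were methylated, which allows shares of up to 1.82% and 2.7% by the limit of 3 counts and of up to 2.28% and 3.35% by the 95% Wilson interval. Few reads stand behind each of these segments, and 12 of the 14 J segments were at 0% in the female T file, with Trbj1-1 unlisted.

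**Figure D5:**
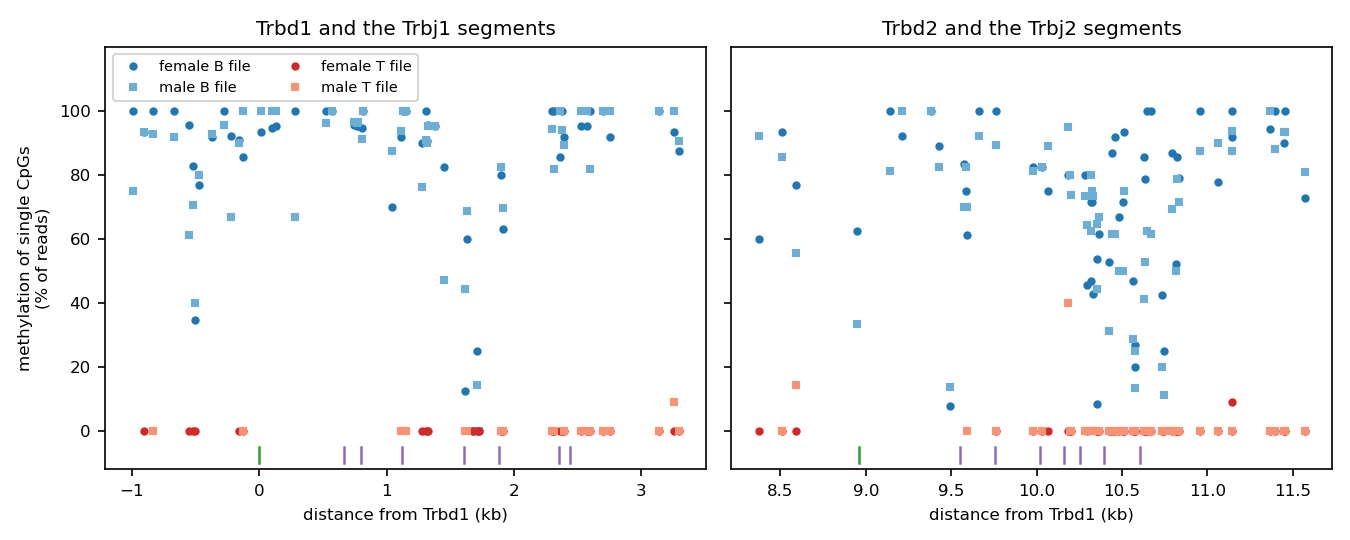
Methylation of single CpGs in percent of reads (vertical axis) within 1 kb of the D and J segments against the distance from Trbd1 in kb (horizontal axis), for the first cluster on the left and the second on the right, with 1 point for each CpG and file and ticks for the segments. All 70 listed female T points and 64 of 66 listed male T points lie at 10% or less (the other two at 14.3% and 40%), whereas B points are mostly above 50%, with lower values 1.5 to 2 kb past Trbd1 and within the Trbj2 cluster.

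The CpG-densest 300 bases between Trbj2-1 and Trbj2-7 (chr6:41543482-41543781, GRCm38, plus strand, CpGs in capitals) show the CpGs behind this pattern. They hold 18 CpGs.
Trbj2: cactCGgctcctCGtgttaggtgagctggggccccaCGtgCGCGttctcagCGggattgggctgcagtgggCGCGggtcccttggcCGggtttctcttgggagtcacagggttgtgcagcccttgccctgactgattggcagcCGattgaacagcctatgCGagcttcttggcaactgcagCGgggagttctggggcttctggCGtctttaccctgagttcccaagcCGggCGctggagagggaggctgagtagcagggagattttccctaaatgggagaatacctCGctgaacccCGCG
In the B files 141 of 246 CpG reads (57.3%) and 148 of 267 CpG reads (55.4%) were methylated there. In the T files 0 of 216 and 0 of 318 CpG reads were, over 13 and 18 listed CpGs. B cells thus had an intermediate level in this stretch, lower than at Trbj2-1 (81.5% and 79%) and Trbc2 (94.9% in both B files), all over the CpGs that a file lists.

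The constant genes and the DNA next to them followed the J segments, and the trypsinogen stretch did not. Over CpGs shared by all 4 files, Trbc1 had 94.7% and 89.7% in the B files and 0% in both T files (difference −92.2 points), and Trbc2 had 94.9% in both B files and 7.14% and 8.45% in the T files. Both were called lower. From Trbv30 to Trbd1 methylation was 90.8% in both B files and 89.1% and 90.7% in the T files, and 0 of 11 genes tested there were called in either direction by the quasi-binomial fit or limma (1 lower at an unadjusted p under 0.05). In coverage, Trbc1 and the trypsinogen stretch were low in the T files (T over B 0.251 and 0.239) and Trbc2 was at 0.836 and was not called.

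Among the V segments 11 of the 31 tested were called lower in T cells and 0 higher. They were 10 of 22 V genes and 1 of 9 V pseudogenes tested, and the median difference was −22.6 points for V genes and −0.428 points for V pseudogenes; the difference between the classes was not tested. Trbv31 had 48.4% and 53.3% in the B files and 2.76% and 1.29% in the T files (−48.8 points, adjusted p = 4.45e-05 from the quasi-binomial fit), with overlapping coverage. The other 10, named after their values were seen, were Trbv13-2 (−56.1 points), Trbv16 (−47), Trbv5 (−39.5), Trbv23 (−38.6), Trbv12-1 (−35.9), the pseudogene Trbv11 and Trbv12-2 (both −32.7), Trbv20 (−26), Trbv19 (−22.3) and Trbv13-1 (−21.9). With 1 dispersion prior for all regions, 2 of the 11 were still called (Trbv16 and Trbv31), against 9 of 10 J segments. Limma on log2 ratios ended the calls at Trbv19 and Trbv23. With every CpG that a file lists Trbv23 was at −19.4 points, and with CpGs of 10 or more reads Trbv12-1 was at −19.8, neither of them called. Leaving out 1 file ended 4 of the calls. Trbv13-1 was at −19 points without the male T file, Trbv19 at −18.7 without the male B file and −19.2 without the male T file, and Trbv20 at −19.5 without the female T file. Trbv23 was at −36.8 without the female T file and −40.4 without the male T file.

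The V segments differed in level as well as in change. Trbv1 was low in both cell types, with 22.6% and 17.5% in the B files and 11.3% and 11.6% in the T files (−8.63 points, adjusted p = 0.0606 from the quasi-binomial fit). Trbv16 had 52.2% and 55.4% against 7.5% and 6.12%, and Trbv13-2 had 79.2% and 80.2% against 28.6% and 18.6%. Trbv29 stayed high, at 97.8% and 98% against 86.8% and 88.2%, with 38 and 34 CpG reads in the T files (−10.3 points, not called). The 5 tested segments with the largest differences towards higher methylation in T cells were the pseudogenes Trbv24 (11.7 points), Trbv6 (4.42), Trbv9 (2.87) and Trbv10 (1.61) and the V gene Trbv30 (0.97), and none was called. At Trbv10 and Trbv30 the difference went in opposite directions in females and males. Trbv24 was the lowest of the V pseudogenes in the B files at 9.13% and 15.4%, with 25.6% and 22.4% in the T files. Over every CpG that a file lists it had 14.8% and 27% in the B files and 30.7% and 25.7% in the T files, so the cell types then overlapped.

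Within the V gene regions the difference was not confined to a single part. Pooled over the 22 V genes, the 500 bp upstream had 61.7% and 60.3% in the B files and 32.6% and 43% in the T files. The segments themselves had 72.4% and 74.5% against 44.7% and 43.4%, and the 500 bp downstream, which hold the recombination signal, 54.8% and 56% against 34.9% and 28.6%. For the 13 V pseudogenes the segments had 73% and 78.4% against 75.5% and 82.4%. Both T files lay below both B files in all 3 parts of the V genes, and at the pseudogenes they did so in the upstream part only. These pools take every CpG a file lists. For the V genes that was 54 in each B file against 40 and 42 in the T files upstream, and 48 and 47 against 36 and 36 downstream. Segments with low T coverage weigh less in the T pools, so part of each difference can come from which segments are counted, which was not tested.

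Sequences of 300 bases of Trbv16 and Trbv31 show the CpGs of V segments with a large fall in methylation, the first called in coverage too and the other not (GRCm38, read in the direction of the segment, CpGs in capitals). Trbv31 (chr6:41557648-41557947) holds 5 CpGs in this stretch and Trbv16 (chr6:41152023-41152322) holds 7.
Trbv31: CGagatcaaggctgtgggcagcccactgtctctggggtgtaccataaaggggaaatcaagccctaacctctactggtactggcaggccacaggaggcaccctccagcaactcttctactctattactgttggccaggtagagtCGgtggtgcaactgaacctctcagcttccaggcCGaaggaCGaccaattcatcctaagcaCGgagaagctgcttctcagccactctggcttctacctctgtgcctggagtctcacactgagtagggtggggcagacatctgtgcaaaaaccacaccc
Trbv16: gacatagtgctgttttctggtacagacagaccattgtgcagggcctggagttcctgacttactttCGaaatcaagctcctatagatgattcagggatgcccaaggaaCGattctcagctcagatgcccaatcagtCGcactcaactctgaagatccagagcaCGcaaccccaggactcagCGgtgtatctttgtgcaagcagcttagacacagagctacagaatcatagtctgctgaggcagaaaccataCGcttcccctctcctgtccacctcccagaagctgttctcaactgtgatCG
In the Trbv31 stretch 47 of 92 CpG reads (51.1%) and 53 of 85 CpG reads (62.4%) were methylated in the B files, and 0 of 118 and 0 of 104 in the T files. In the Trbv16 stretch 59 of 139 CpG reads (42.4%) and 85 of 176 CpG reads (48.3%) were methylated in the B files, and 4 of 97 (4.12%) and 2 of 72 (2.78%) in the T files.

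Coverage and methylation calls were set side by side for the V segments, with no test of their association. Of the 12 V segments called lower in coverage, 10 could be tested for methylation and 4 were called lower there (Trbv16, Trbv19, Trbv20 and Trbv23); of the 21 tested V segments with no coverage call, 7 were called lower in methylation. Along the chromosome, methylation calls were 6 of 18 tested from Trbv2 to Trbv15, 3 of 4 from Trbv16 to Trbv20 and 1 of 7 from Trbv21 to Trbv30, while coverage calls were 0 of 18, 3 of 5 and 9 of 10. The median methylation differences of the tested segments were −13, −24.4 and −13.1 points in these stretches. Calls also depend on the number of reads, which was small in the T files for most segments from Trbv21 to Trbv30. Trbv26 had −31.5 points with 20 and 17 CpG reads in the T files and was not called. With every CpG that a file lists it was called at −51 points. Trbv31 had a methylation call with the T and B files overlapping in coverage, and Trbv29 had a coverage call with no methylation call.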

How the data were processed

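Spleen B cells and naive CD4+ T cells were profiled by whole-genome bisulfite sequencing (WGBS). Per the submitters' processing notes, reads were trimmed with Trim Galore, checked with FastQC and aligned to mm10 with Bismark 0.13.1. The authors deposited 4 tables, 1 for each group of 2 labelled samples, that give for each CpG a methylation fraction and a coverage count, with strands merged and CpGs under 5 reads unlisted; how the 2 samples enter a table is not given in the sources used here. Part of each library was oxidised, and the bisulfite tables were used here. Deposited positions count from 0 and were raised by 1: all 1133730 listed positions of chromosome 6 then lay on a CpG of GRCm38. Alignment was to the unrearranged genome, and whether reads across a joined segment were lost was not tested. No column of per-sample values was left unmapped.

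Methylated counts were recovered from fraction and coverage (100% of products were whole, with a tolerance of 0.0011 on the fraction). Gene regions (GENCODE M21, body with 500 bp to each side) needed 3 CpGs and 40 reads over the 4 files. Coverage was tested with edgeR 4.0.16 (glmQLFit, terms for cell type and sex, library size set to the autosomal median), with DESeq2 1.42.0 and limma 3.58.1 as alternatives, in R 4.3.3. The SE printed with an edgeR log2 difference is not given by edgeR. It was derived as the absolute difference over the square root of the F statistic, and it is approximate, above all where a file is at 0. Methylation was tested with a quasi-binomial logistic model, its dispersion moderated with limma's fitFDist over 45665 regions, with 1 residual degree of freedom. p-values were Benjamini-Hochberg adjusted over all regions. The tests were also run on simulated data with known changes, and no result given here rests on those runs. Autosomal coverage was 14.6 to 17.7 reads per listed CpG on average.

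The segments and lists were chosen with earlier results of these data known. Named by rule were every Trbd and Trbj, the first and last Trbv, the 6 Trbv with the lowest and the 6 with the highest T over B coverage, and the 5 tested segments with the largest methylation difference in each direction; others were named after their values were seen. The result of the B cell marker list as a whole is not reported here. Alternatives covered scaling, tool, unlisted CpGs, filters, flanks, thresholds and each file left out.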

Additional observations from a re-analysis of the deposited data

Results flagged for a closer look

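With 1 file for each sex and cell type, no group was large enough for a check of single outlying samples. The difference between T and B files went in opposite directions in females and males for 4 of 51 segments in coverage and 6 of 41 in methylation, all of them V segments, none of them called in the measure concerned, and the difference between the sexes was not tested. In coverage, the T over B ratio in females and males was 1.2 and 0.657 at Trbv2, 0.703 and 1.35 at Trbv5, 0.973 and 1.04 at Trbv7, and 0.693 and 1.09 at Trbv13-1. In methylation, the T minus B difference in females and males was 7.86 and -6.9 points at Trbv4, 0.0999 and -7 at Trbv7, and -4.14 and 3.28 at Trbv8. It was 12.1 and -8.88 points at Trbv10, -6.05 and 3.92 at Trbv12-3, and -1.81 and 3.75 at Trbv30.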

How the results depend on the processing

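No segment changed direction as a called result under any alternative. The count of segments with lower coverage in T cells, 24 as reported, was 11 with DESeq2 (4 of 12 V and 7 of 12 D and J calls kept), and the cause was not tested. It was 4 with the segment bodies alone, where 27 of 51 segments could be tested (3 of 12 V and 1 of 12 D and J calls kept). It lay between 16 and 27 under the other settings and between 23 and 29 with 1 file left out, and 0 segments were called higher throughout. The count with lower methylation, 21 as reported, was 11 with 1 dispersion prior for all regions (2 of 11 V and 9 of 10 J calls kept, cause not tested). It was 12 with CpGs of 10 or more reads, where 22 segments could be tested. With the bodies alone, where 21 could be tested, it was 10 (9 of 11 V and 1 of 10 J calls kept). It lay between 19 and 26 under the other settings and between 19 and 23 with 1 file left out. Trbv11, Trbv18 and Trbv25 were also called lower in coverage with unlisted CpGs at 4 reads and with cell type as the only term. Without the male B file, coverage was also called lower at Trbv11, Trbv14, Trbv17, Trbv18 and Trbv25, and methylation at Trbv3, Trbv15 and Trbv26. Without the male T file, coverage was also called lower at Trbv18 and Trbv25 and methylation at Trbv2 and Trbv17, and without the female B file coverage at Trbv25. The summed T over B ratio of 0.524 was 0.525 with scaling by the autosomal mean, 0.571 with unlisted CpGs at 4 reads and 0.67 with CpGs listed in all 4 files. In windows of 5 kb, 56.9% of the locus had a ratio of 0.5 or less in both sexes, against 58.2% in windows of 10 kb. At 14 to 17 reads per CpG, segments with under 20 CpG reads in a T file, such as Trbd1 and Trbd2, set only a loose limit on methylation. T and B files were paired by sex through the sex term of both fits. Pairing by replicate number was not possible, because the numbers differ between all groups and each group has 1 file.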
